A study of Mus musculus with 16 samples.

Results

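The AP-1 and ATF factors Fos, Fosb, Fosl2, Jun, Junb, Jund, Atf3, Batf, Batf2 and Batf3 were described by the H3K27ac peaks that lie within 50 kb of any of their annotated start sites. They are 10 of the 21938 protein-coding genes with a start site in the annotation used. Merging overlapping peaks of all lists gave 55218 regions, of which 140 lay near these genes, and no region lay near more than 1 of them. H3K27ac, a histone acetylation found at active promoters and enhancers, had been measured by ChIP-seq in bone marrow-derived macrophages (BMDMs) grown from C57Bl6 mice aged 8 to 12 weeks in medium with LCCM. The 4 groups were untreated cells (Control), cells given IFNγ at 100 ng/mL for 1 h (IFNγ), cells given the PARP inhibitor PJ34 at 20 µM (PJ34), and cells given PJ34 1 h ahead of the same IFNγ treatment (IFNγ+PJ34). Each group had 2 ChIP replicates and 2 inputs, 8 ChIP and 8 input samples in all, and each has a single deposited peak list made from both replicates. No value therefore has a replicate error and no difference between conditions was tested. No genotype other than the strain is given, and an inhibitor of several PARP enzymes is not a deletion of 1 of them.

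AP-1 is a family of dimeric transcription factors that bind DNA through basic leucine zippers. FOS proteins pair with JUN proteins, JUN proteins also pair with one another, and ATF3 and the BATF proteins, which lack a classical activation domain, pair with JUN proteins too. Fos, Fosb, Jun, Junb and Atf3 are immediate-early genes in many cells, switched on by kinase signalling within minutes, whereas BATF dimers bind composite sites with IRF4 or IRF8 in immune cells.

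The first sequences show letters that AP-1 and ATF factors can bind in promoters of the family itself. They are the 200 bases upstream of the RefSeq start site (GRCm38.p6, the same build as mm10) of Fos at chr12:85473690-85473889 on the plus strand, Fosb at chr7:19310046-19310245 on the minus strand and Jun at chr4:95052223-95052422 on the minus strand. Of the 10 genes, 9 matched the RefSeq promoter table and Batf2 did not. Capitals mark TGACG, a partial cAMP response element, in Fos and Fosb, and TGACNTCA in Jun.
Fos: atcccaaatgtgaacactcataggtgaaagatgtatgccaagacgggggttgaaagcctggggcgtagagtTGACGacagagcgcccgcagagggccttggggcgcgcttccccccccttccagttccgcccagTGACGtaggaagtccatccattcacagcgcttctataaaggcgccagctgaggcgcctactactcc
Fosb: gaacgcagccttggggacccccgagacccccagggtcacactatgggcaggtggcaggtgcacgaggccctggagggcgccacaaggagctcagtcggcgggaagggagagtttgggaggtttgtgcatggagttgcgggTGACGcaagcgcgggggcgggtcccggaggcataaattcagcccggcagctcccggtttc
Jun: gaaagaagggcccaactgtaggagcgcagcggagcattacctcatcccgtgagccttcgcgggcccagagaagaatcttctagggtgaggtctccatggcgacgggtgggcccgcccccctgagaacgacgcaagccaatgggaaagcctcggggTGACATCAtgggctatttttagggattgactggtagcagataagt
The partial site TGACG, searched on both strands, occurred 2 times in the Fos window and 1 time in the Fosb window. It also occurred 1 time each in the Junb, Atf3 and Batf windows, and not in those of Fosl2, Jun, Jund and Batf3. Of 32851 RefSeq promoter windows of this length, 15.7% held it. The letters TGACNTCA were searched after the Jun promoter had been read, so their match there is no result, and 6.62% of the windows held them. The full element TGACGTCA, which both patterns overlap, was in none of the 9 promoter windows, and 1.47% of all windows held it. The AP-1 site TGANTCA, which 5.48% held, was also in none of the 9. The windows do not all meet the start sites used for the peaks. The Jund window ended at chr8:70697738, upstream of that start site at 70698949, and the Fosl2 window began at chr5:32136272, downstream of 32135801. The H3K27ac regions over the Jund and Batf2 start sites each held 1 match to TGACGTCA. These matches describe letters, not bound sites.

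The other sequences come from the region near these genes whose percentile stood furthest above Control in IFNγ, in an intron of Batf2. GAS elements, written here as TTCNNNGAA, are known from promoters and enhancers that respond to IFNγ. The region at chr19:6155819-6158499 (mm10, plus strand shown) held 2 such matches, at chr19:6157127-6157135 and chr19:6157690-6157698, centred 222 and 785 bp from the IFNγ summit. Each is printed with 50 bases on either side, the match in capitals.
Batf2 intron, first match: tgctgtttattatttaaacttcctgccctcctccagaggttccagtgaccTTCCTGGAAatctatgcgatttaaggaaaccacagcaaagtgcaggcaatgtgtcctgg
Batf2 intron, second match: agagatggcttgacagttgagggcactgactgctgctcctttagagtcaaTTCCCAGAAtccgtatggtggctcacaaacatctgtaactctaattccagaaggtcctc
The 200 bases around the IFNγ summit of this region held no match, whereas 5.54% of such windows over all 40708 IFNγ peaks did.

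The Control, IFNγ, PJ34 and IFNγ+PJ34 lists held 43533, 40708, 44090 and 42960 peaks, and the files hold no read counts, so depth is unknown. All 10 macrophage marker genes, among them Spi1 and Csf1r, had a promoter peak in all 4 lists, and of 19 markers of other bone marrow cells 17 had one in no list and the erythroid gene Klf1 had one in all 4. Because depth is unknown and enrichment may differ between lists, peaks were compared by score percentile, the share of peaks of the same list with a lower score, with ties sharing their middle rank, and a difference of at least 20 percentile points was called a shift. Fold means the deposited enrichment over local background. In bulk chromatin, fewer cells with the mark and less mark per cell cannot be told apart.

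Near the 10 genes there were 122 Control, 124 IFNγ, 126 PJ34 and 124 IFNγ+PJ34 peaks. They covered 197, 174, 194 and 158 kb, with median percentiles of 57.0, 56.3, 57.6 and 50.2. The number of peaks thus hardly differed, while the IFNγ+PJ34 list covered least and ranked lowest. Median peak widths near the genes were 878, 851.5, 809.5 and 702.5 bp in the same order. Whole lists also differed in width, with medians of 732, 647, 647 and 634 bp. Of the 140 regions, 60 (42.9%) were in all 4 lists, compared with 38.9% of all regions, and 52 (37.1%) were in 1 list, compared with 35.2%. Summits of 27 regions lay at a promoter, 18 in an intron, 5 in an exon and 90 between genes, and for 35 regions another gene lay nearer than the factor. Every one of the 10 promoters had a peak in all 4 lists, as did 47.8% of all genes.

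**Figure D1:**
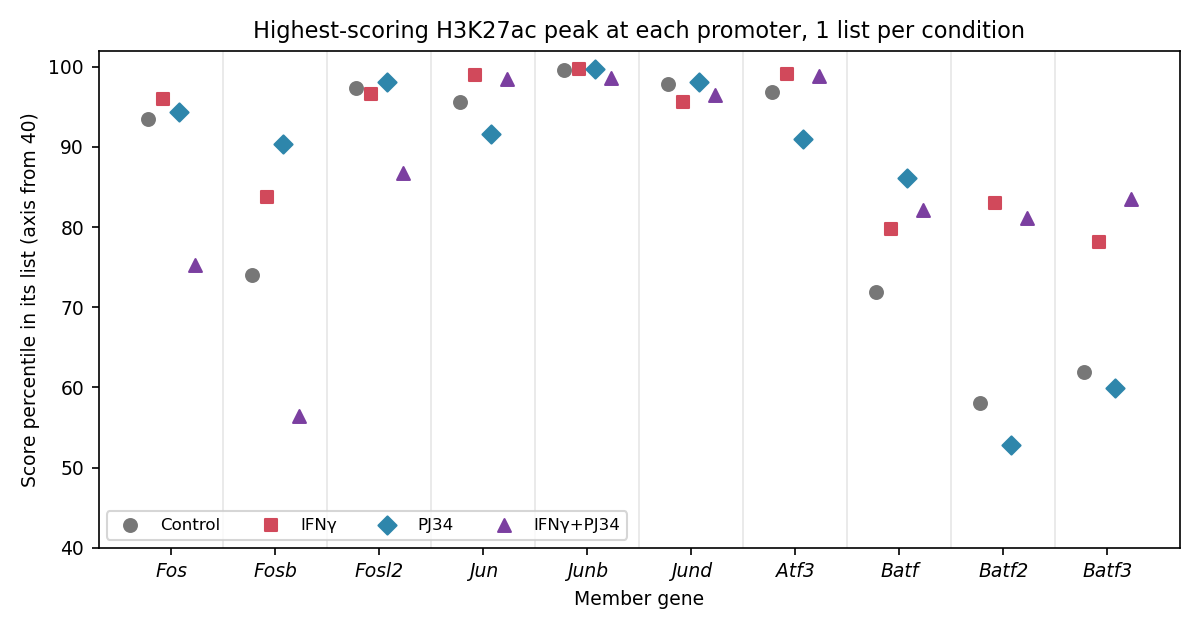
Score percentile (y axis, from 40) of the highest-scoring peak within 1 kb of a start site of each gene (x axis) in the 4 lists, 1 point per list and no error. Batf2 and Batf3 stand higher in both lists with IFNγ, and Fos and Fosb stand lowest in IFNγ+PJ34.

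Batf2 and Batf3, which encode BATF proteins that serve in dendritic cells and macrophages, ranked higher in both lists made with IFNγ. The Batf2 promoter peak stood at percentile 58.0 in Control, 83.0 in IFNγ, 52.9 under PJ34 and 81.1 under IFNγ+PJ34, with folds of 5.87, 17.2, 4.68 and 11.9. It was the one promoter of the 10 that shifted up between Control and IFNγ, by 25.0 points, where 1.07% of 10668 gene promoters shifted up and 5.21% down, and none of the 10 shifted down. Ranked by width instead of score, the Batf2 promoter was 11.8 points higher, short of a shift, and the Batf3 promoter 23.4 points higher. The intronic region 5.94 kb upstream of the main Batf2 start site stood at 49.1, 89.5, 46.0 and 88.4 in the same order of lists, with folds of 6.86, 29.4, 4.65 and 21.1. Both Batf2 regions were thus high with IFNγ and near the middle of the list without it, whether or not PJ34 was present. The highest-scoring region near Batf2, at the promoter of Arl2, a small GTPase gene, varied little, from 92.1 in PJ34 to 97.2 in IFNγ+PJ34. The annotated span of Batf2 also begins within this region, at chr19:6140983, upstream of the Batf2 start sites used.

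The Batf3 promoter peak stood at 62.0 in Control, 78.2 in IFNγ, 59.9 under PJ34 and 83.5 under IFNγ+PJ34, with folds of 8.87, 14.0, 6.61 and 22.3. The IFNγ list was 16.2 points above Control, short of a shift, and IFNγ+PJ34 was 23.5 points above PJ34. The highest-scoring region of the locus, 8.70 kb upstream in an exon of Nsl1 (chr1:191084768-191089625), stood at 81.8, 94.0, 79.0 and 98.6. A region 24.30 kb downstream of the start site (chr1:191122620-191123701) had no Control peak and stood at 65.9 in IFNγ, 15.3 under PJ34 and 82.2 under IFNγ+PJ34. Another, 20.55 kb downstream, stood at 11.5 in Control, 46.7 in IFNγ and 27.04 in IFNγ+PJ34 and was absent from PJ34. All 6 Batf3 regions found in all 4 lists ranked higher in IFNγ+PJ34 than in PJ34 and than in IFNγ. Of all 21468 such regions, 39.1% ranked higher in IFNγ+PJ34 than in PJ34 and 49.04% ranked higher in it than in IFNγ. A further 8 of the 17 regions near Batf3 were in IFNγ+PJ34 alone, as were 10.4% of all regions, the best of them at 53.0, 16.81 kb downstream. Peaks near Batf3 covered 14.2 kb in Control, 10.9 kb in PJ34, 18.8 kb in IFNγ and 23.8 kb in IFNγ+PJ34, so the locus was widest with both agents.

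**Figure D2:**
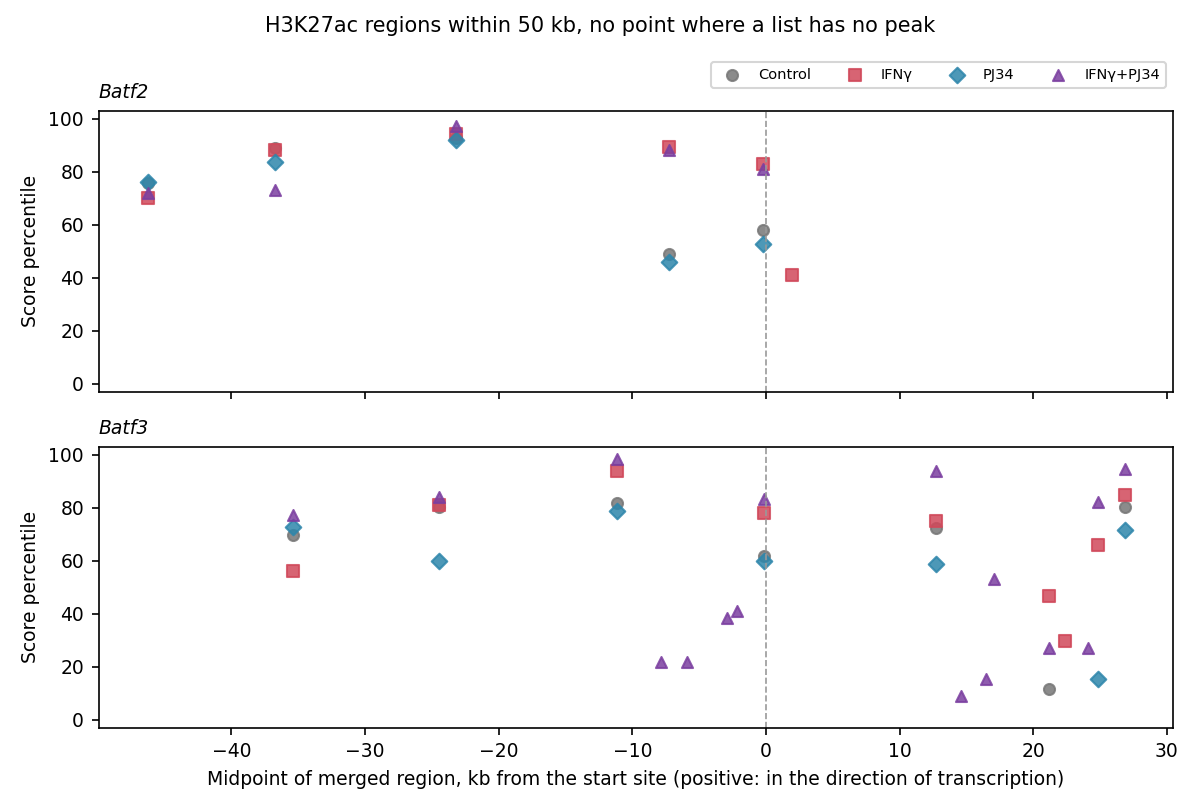
Score percentile (y axis) of each merged region against its midpoint in kb from the start site (x axis) for Batf2 and Batf3, 1 point per list with a peak there. At Batf2 the intronic and promoter regions split into a high pair with IFNγ and a low pair without it, and at Batf3 the IFNγ+PJ34 points are the most numerous.

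Batf, the founding BATF gene, differed from both. Its promoter stood at 71.9 in Control, 79.8 in IFNγ, 86.1 under PJ34 and 82.2 under IFNγ+PJ34, lowest in Control and with no shift in any comparison. Its highest-scoring region, 15.28 kb downstream within the gene, stood at 96.3, 93.1, 96.9 and 95.8. Among upstream regions, 3 were in Control or IFNγ alone, and others ranked highest in PJ34. The one 18.81 kb upstream stood at 49.1 in Control, 10.4 in IFNγ and 68.6 in PJ34 and was absent from IFNγ+PJ34, and the one 15.56 kb upstream stood at 40.2, 17.0, 70.3 and 15.6. A weak region 23.17 kb upstream was absent from Control and stood at 4.5 in IFNγ, 38.2 under PJ34 and 21.9 under IFNγ+PJ34. The PJ34 list alone held 8 of the 20 regions near Batf, compared with 8.93% of all regions, of which the one 42.52 kb downstream, at 56.3, was in the upper part of its list. Peaks near Batf covered 13.4 kb in Control, 23.5 kb in PJ34, 8.9 kb in IFNγ and 5.0 kb in IFNγ+PJ34, so cover was largest with PJ34 and smallest with both agents.

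Fos and Fosb, whose products pair with JUN proteins, kept a promoter peak everywhere but ranked lowest in IFNγ+PJ34. The Fos promoter stood at 93.5 in Control, 96.0 in IFNγ, 94.4 under PJ34 and 75.3 under IFNγ+PJ34, with folds of 27, 44.5, 31.1 and 12.2. The highest-scoring Fosb promoter peak stood at 74.0, 83.8, 90.4 and 56.4, with folds of 14.7, 20.4, 35.2 and 7.76, but these peaks were not at 1 position. In IFNγ and PJ34 they lay over the start sites, and in Control and IFNγ+PJ34 within the gene, where they overlapped neither of the other 2. The peaks over a Fosb start site stood at 67.7, 83.8, 90.4 and 21.9, and those within the gene at 74.0, 62.1, 72.4 and 56.4, a pairing by position made after the values were seen. IFNγ+PJ34 ranked lowest at both positions. At the other 9 genes the compared promoter peaks of all 4 lists overlapped. Set against IFNγ alone, IFNγ+PJ34 was 20.7 points lower at Fos and 27.4 points lower at Fosb, the 2 promoters that shifted down of 10, where 4.35% of gene promoters shifted down and 3.55% up, and none of the 10 shifted up. Ranked by width instead of score, the same difference was -0.593 points at Fos and -54.5 at Fosb, so the Fos shift was lost. Against PJ34, Fosb was 34.0 points lower, Fos 19.1 points lower, Batf2 28.2 points higher and Batf3 23.5 points higher, so that 2 of 10 shifted up and 1 down, where 1.79% of gene promoters shifted up and 8.52% down. At Fos the promoter was not lower with 1 agent alone than in Control. Between PJ34 and Control none of the 10 promoters shifted, where 1.62% of gene promoters shifted up and 1.82% down. The median difference over all gene promoters was -4.22 points for IFNγ+PJ34 minus PJ34 and -1.24 for IFNγ+PJ34 minus IFNγ.

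Regions away from the Fos promoter followed other orders. Those 18.61, 17.40 and 3.79 kb upstream stood in Control at 81.5, 83.5 and 83.5 and in IFNγ at 29.9, 48.7 and 29.9. In PJ34 they stood at 70.7, 32.8 and 46.0 and in IFNγ+PJ34 at 61.6, 74.5 and 66.2. The last 2 were thus also far below Control with PJ34 alone, and higher with both agents than with PJ34. A region 22.76 kb downstream stood at 52.1, 24.3, 59.9 and 41.0 in the 4 lists. Control ranked highest of the 4 at all 3 upstream regions. Further downstream, the regions 34.63, 39.99 and 44.05 kb from the start site had peaks in Control, IFNγ and PJ34, at 68.0, 75.8 and 77.9 in PJ34, and none in IFNγ+PJ34. Peaks near Fos covered 32.5, 18.5, 33.2 and 13.9 kb in the 4 lists, lower in both lists with IFNγ.

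Near Fosb, the 8 regions in all 4 lists all ranked lower in IFNγ+PJ34 than in PJ34, as did 60.9% of all 21468 such regions, and 7 of the 8 ranked lower in IFNγ than in Control, as did 61.9%. Fosb was the nearest gene for only 7 of the 18 regions of this locus. The region 22.44 kb upstream, nearer to Ercc1, stood at 63.3 in Control, 34.3 in IFNγ, 57.6 under PJ34 and 21.9 under IFNγ+PJ34. The regions 5.88 and 10.18 kb upstream were in Control alone, at 68.6 and 50.7. One region 27.88 kb downstream, 0.907 kb from a start site of Rtn2, ran the other way. It was absent from Control and stood at 59.3, 25.3 and 47.3 in the other lists. In Control, IFNγ and PJ34 the highest-scoring region near Fosb was at the promoter of Vasp, an actin regulator, which stood at 97.9, 97.6, 99.3 and, in IFNγ+PJ34, 85.9, where a region at the Cd3eap promoter stood higher, at 94.4.

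**Figure D3:**
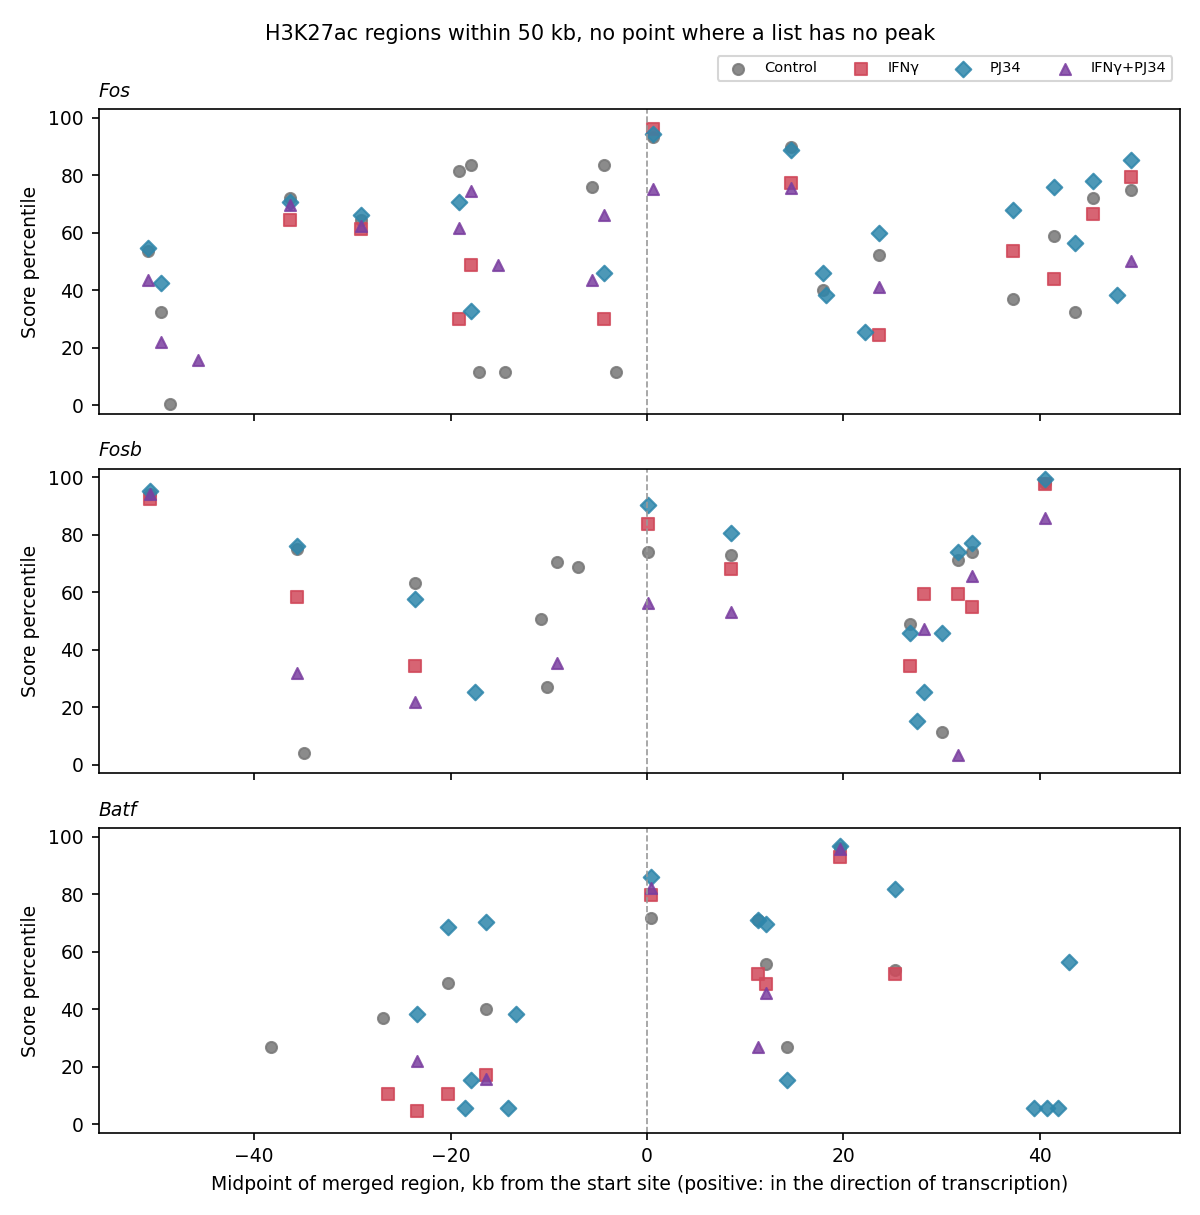
Score percentile (y axis) of each merged region against its midpoint in kb from the start site (x axis, the first listed one for Fosb) for Fos, Fosb and Batf, 1 point per list with a peak there. IFNγ+PJ34 has no points from about 34 to 45 kb downstream of Fos, where the PJ34 points stand highest.

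Fosl2, a FOS relative with slower kinetics, had its highest-scoring region at its promoter, at 97.3 in Control, 96.6 in IFNγ, 98.1 under PJ34 and 86.8 under IFNγ+PJ34, again lowest with both agents. A region 31.56 kb upstream was in the IFNγ list at 48.7 and the IFNγ+PJ34 list at 41.0 and in neither of the others.

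The JUN genes, whose products are partners in most AP-1 dimers, varied less in percentile, which leaves little room near the top of a list. Promoter folds in Control, IFNγ, PJ34 and IFNγ+PJ34 were 51.7, 60.5, 36.3 and 43.8 at Jun. They were 75.0, 57.1, 67.7 and 53.4 at Junb and 72.7, 40.1, 54.7 and 48.1 at Jund. The Jun promoter stood at 95.6 in Control, 98.9 in IFNγ, 91.7 under PJ34 and 98.5 under IFNγ+PJ34. Junb stayed between 98.6 and 99.8, with the same peak among the top of each list, and Jund between 95.6 and 98.0. The Jun promoter peak compared, 0.14 kb upstream of the start site, was therefore higher in the IFNγ lists by a few points. Junb and Jund differed by less. The Jun region over the start site stood at 91.8, 92.5, 86.0 and 91.1. There IFNγ was only 0.696 points above Control, and IFNγ+PJ34 was above PJ34 but below Control. In the Jund neighbourhood, a region 43.67 kb upstream, in an intron of Pgpep1, was absent from Control and PJ34 and stood at 61.3 in IFNγ and 72.1 in IFNγ+PJ34.

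Atf3, a stress-induced ATF factor, has 2 start sites, at chr1:191183340 and, further upstream, at chr1:191218039. It resembled Jun, with its highest-scoring promoter peak, at 191183340, standing at 96.9, 99.1, 90.9 and 98.8. A second promoter region, 0.14 kb upstream of the same start site, stood at 91.2, 88.6, 84.3 and 82.4. That region was lower in IFNγ than in Control and lower in IFNγ+PJ34 than in PJ34. A region 12.25 kb upstream of its nearest start site, again 191183340, and within an intron, stood at 90.5, 99.6, 92.0 and 99.0. The highest-scoring Control region, 5.46 kb upstream of the other start site at 191218039, stood at 99.5, 98.9, 96.1 and 96.2. Regions 34.88 and 40.15 kb upstream of 191218039 stood in Control at 80.3 and 73.7 and in IFNγ at 52.2 and 38.4. In PJ34 they stood at 25.3 and 50.8, and in IFNγ+PJ34 at 53.0 and 61.6. Both were lower with IFNγ than without it in the absence of PJ34 and higher in its presence.

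Shares of peaks absent from another list were mostly near those of whole lists. Of IFNγ peaks near the 10 genes, 18 of 124 (14.5%, exact Clopper-Pearson 95% interval 8.84 to 22.0) were absent from Control, compared with 16.8% of all IFNγ peaks. Of Control peaks, 33 of 122 (27.05%, 19.4 to 35.8) were absent from IFNγ, compared with 31.7%. Of PJ34 peaks, 24 of 126 (19.0%) were absent from Control, compared with 19.5%, and 28 of 122 Control peaks (23.0%) were absent from PJ34, compared with 25.1%. Intervals cover counting error only and treat neighbouring peaks as independent. With both agents, 33 of 124 IFNγ peaks (26.6%) were absent from IFNγ+PJ34, compared with 24.1%, and 38 of 126 PJ34 peaks (30.2%) were absent from it, compared with 31.6%. Of IFNγ+PJ34 peaks, 25 of 124 (20.2%, 13.5 to 28.3) were absent from PJ34, compared with 25.7%. Only for IFNγ+PJ34 peaks absent from IFNγ, 23 of 124 (18.5%, 12.1 to 26.5), did the interval among these 8 shares leave out that of the whole list, 27.2%.

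**Figure D4:**
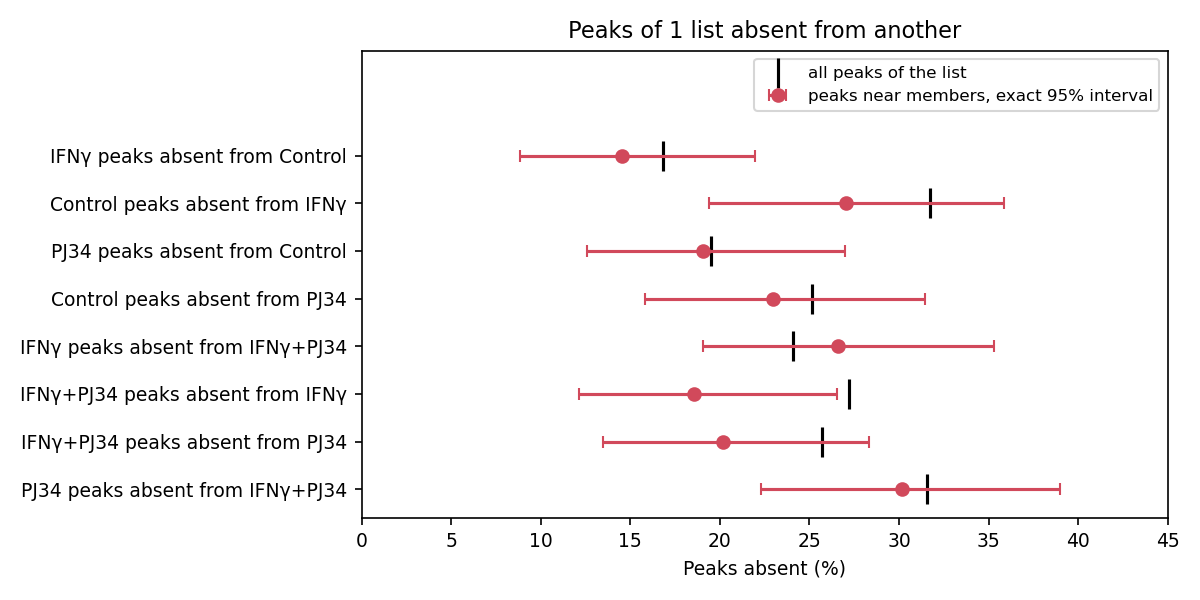
Percent of peaks of 1 list with no overlapping peak in another (x axis) for each ordered pair of lists shown (y axis). Circles with bars are peaks near the 10 genes with exact 95% intervals for counting error, and vertical ticks are all peaks of the list, inside the bar in 7 of 8 cases.

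Every one of the 10 genes had an IFNγ peak absent from Control within 50 kb, against 26.0% of all genes and 37.8% of the genes with a promoter peak in all 4 lists. Many of these peaks were weak. The highest stood at percentile 0.722 near Fos, 10.4 near Junb and near Batf, 17.0 near Atf3 and 34.3 near Jun. It stood at 41.2 near Batf2, 48.7 near Fosl2, 59.3 near Fosb, 61.3 near Jund and 78.6 near Batf3. Of the 10, 8 had a Control peak absent from IFNγ (43.7% of all genes, 61.6% of those with a promoter peak), 8 had a PJ34 peak absent from Control (29.0% and 41.6%), and 7 had an IFNγ+PJ34 peak absent from PJ34 (34.7% and 48.5%). The count of 10 with an IFNγ peak absent from Control was 4 within 10 kb and 5 where peaks within 1 kb counted as shared. It was 6 with both lists cut to their upper 50%, where a Control peak below the cut no longer counted as a match. These loci held many peaks, and the part of peak number in these counts was not tested.

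Rank differences of regions showed a similar picture. Of 69 regions near the genes found in both lists, 3 stood higher by 20 points or more in IFNγ than in Control and 9 lower, where 7.39% and 15.6% of all regions did. The 3 were the Batf2 promoter and intron and the Batf3 region 20.55 kb downstream, and the 9 were 4 of Fos, 2 of Batf, 2 of Atf3 and 1 of Fosb. That Batf3 region was weak, with a score of 12 in Control and 20 in IFNγ, where the lowest score of a list was 10. The scores at the Batf2 intron were 21 and 163. Of 65 regions, 11 stood higher in IFNγ+PJ34 than in PJ34 and 11 lower, where 12.7% and 16.2% of all regions did. Of 73 regions, 7 stood higher in PJ34 than in Control and 5 lower, where 8.32% and 9.88% did. Of 66 regions, 5 stood higher in IFNγ+PJ34 than in IFNγ and 7 lower, where 13.9% and 10.9% did. Among the 60 regions in all 4 lists, the IFNγ difference had the same sign with and without PJ34 in 43 (71.7%), compared with 55.0% of 21468 regions.

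**Figure D5:**
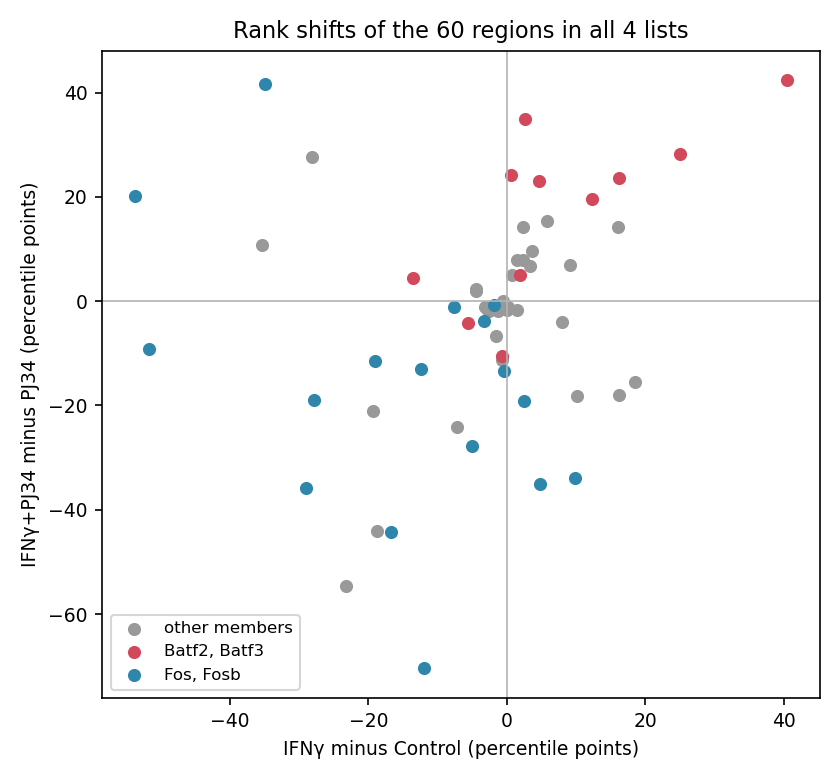
Percentile difference of IFNγ minus Control (x axis) against IFNγ+PJ34 minus PJ34 (y axis) for the 60 regions in all 4 lists, 1 point per region. Batf2 and Batf3 points lie mostly at the upper right, and Fos and Fosb points mostly below 0 on the y axis.

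Promoters of related genes were set beside these. A promoter peak in all 4 lists was found for 26 of 27 other bZIP factors, 20 of 22 immediate-early genes, 25 of 27 kinases and phosphatases upstream of AP-1, and both BATF partners, Irf4 and Irf8. The exceptions were Fosl1 and Nr4a1, absent from IFNγ+PJ34, Egr3, in no list, Map2k6, in 2 lists, and Mapk13, a p38 kinase gene absent from Control that stood at 71.8 in IFNγ, 5.78 under PJ34 and 75.6 under IFNγ+PJ34. Between Control and IFNγ, Mapk11, another p38 gene, went from 57.0 to 34.3. The immediate-early genes Egr1, Dusp2 and Myc, named after their values were seen, were the 3 of 20 that stood at least 20 points lower in IFNγ+PJ34 than in PJ34, where 8.52% of gene promoters did, at 47.3, 55.4 and 41.0 against 86.6, 93.7 and 83.5. So did, also named with values known, 1 of 26 other bZIP factors, Jdp2, by 22.1 points, and 2 of 26 kinases and phosphatases, Mapk3 by 33.2 and Mapk11 by 65.6 points. Of the BATF partners, both named with their values known, Irf8 stood at 90.5 in Control, 98.0 in IFNγ, 86.6 under PJ34 and 94.1 under IFNγ+PJ34, and Irf4 at 45.1, 44.0, 32.8 and 27.04.

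Over their whole length, motif letters in the 140 regions were about as frequent as in all regions. GAS matches numbered 86, or 0.333 per kb (exact Poisson 95% interval 0.267 to 0.412), compared with 0.340 over all regions. TGANTCA numbered 90, or 0.349 per kb, compared with 0.351. TGACGTCA numbered 2, or 0.00775 per kb, compared with 0.0139.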

How the data were processed

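H3K27ac ChIP-seq of BMDMs in 4 conditions was analysed from 4 deposited peak lists, 1 per condition. The authors aligned reads to mm10 with Bowtie, kept good-quality unique reads, and called relaxed peaks with MACS at p = 0.01 against input, keeping peaks found in both replicates. The deposited columns are a score, a fold ratio over background, -log10 p and -log10 q as the peak caller gave them, and a summit offset, listed under other. Inputs have no list, and depth is unknown.

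Start sites came from GENCODE M21 (basic set, GRCm38) and sequences from RefSeq (GRCm38.p6). Overlap of at least 1 bp counted as shared, and a peak within 1 kb of a start site as a promoter peak. Peaks were ranked by score within a list, and scripts used Python 3.11.15, pandas 2.3.3, scipy 1.17.1 and pysam 0.24.0. Interval functions were tested on simulated data. With 1 list per condition no test was made. Members, gene lists and markers were chosen with earlier results of these data known. Text names every member, its promoter and highest-scoring region, regions absent from Control but in both IFNγ lists, regions in 1 list and its upper 50%, regions shifting by 20 points between Control and IFNγ, and comparison genes with a missing promoter peak or such a shift. The searches for TGACG, TGACNTCA, GAAANNGAA and the CArG box were chosen once the data were known, and TGACNTCA after the Jun promoter had been read. GAAANNGAA numbered 0.392 per kb in the regions against 0.401 in all, and the CArG box occurred in none of the 9 promoter windows, against 1.18% of all. Some genes that this rule would name are not reported here.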

Additional observations from a re-analysis of the deposited data

Results flagged for a closer look

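At 4 promoters the IFNγ difference in percentile had opposite signs without and with PJ34, and none of these contrasts was tested. The difference with PJ34 minus the difference without it was -21.6 points at Fos (2.47 without, -19.1 with), -43.8 at Fosb (9.82 and -34.0), -11.8 at Batf (7.91 and -3.92) and -1.42 at Junb (0.211 and -1.20). With 1 list per condition no spread between replicates is known, and the Junb values are small beside the 20 points used to call a shift. The Fosb values compare peaks at different positions of its promoter.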

How the results depend on the processing

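No paired analysis was possible because a condition has 1 list, built from its 2 replicates together, which also kept single replicates from being left out. Of 156 alternative values, 134 stayed within the interval, 1.5 times or, for promoters, 20 points of the main one and on the same side of the call, and no called difference changed sign. The total of 496 peaks near the genes was 143 at 10 kb, 835 at 100 kb and 278 in the upper 50% of each list. In the upper 50% setting every list was cut before matching, so a peak below the cut counted as absent. There, 6 of the 10 genes had an IFNγ peak absent from Control. Such genes numbered 4 at 10 kb and 5 where peaks within 1 kb counted as shared. That last setting gave shares absent of 5.65% for IFNγ peaks against Control, 15.6% for Control peaks against IFNγ, 10.3% for PJ34 peaks against Control and 12.9% for IFNγ peaks against IFNγ+PJ34. Control peaks absent from IFNγ were 18.8% at 10 kb and 39.3% with an overlap of 50%, and PJ34 peaks absent from Control were 6.85% in the upper 50%. Regions higher in IFNγ than in Control numbered 5 when ranked by fold. In 200 bp around summits, GAS matches were 0.429 per kb (12 matches, interval 0.221 to 0.749) against 0.300 over all regions, TGANTCA 0.214 (6 matches) against 0.263 and TGACGTCA 0 against 0.00516. Ranked by width, IFNγ+PJ34 minus IFNγ was -0.593 at Fos and -54.5 at Fosb, IFNγ minus Control was 11.8 at Batf2 and 23.4 at Batf3, and IFNγ+PJ34 minus PJ34 was 48.0 at Batf3, so the Fos shift from IFNγ was not seen in width. Start sites of all transcripts, added after the data were seen, changed none of these counts by over 1.5 times. The causes were not tested.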
